A study of Homo sapiens with 9 samples.

Results

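The 10 genes described here encode the adaptors, carriers and small GTPase that move proteins through the nuclear pore. They are the importin α genes KPNA1, KPNA2, KPNA3, KPNA4, KPNA5 and KPNA6, the importin β gene KPNB1, the transportin gene TNPO1, the exportin gene XPO1 and RAN. They were chosen by name and function, with earlier results of these data known, and are 10 of the 61544 genes counted. All 10 were among the 18653 genes with enough reads to be tested. RNA-Seq was done on H1975, a human lung adenocarcinoma cell line with mutant EGFR, in 9 libraries. Every group received si78, an siRNA that targets the untranslated 3′ end of the GRP78 transcript, for 24 h, and then a plasmid for 48 h. The plasmid was empty pcDNA3 (vector), FLAG-tagged wild-type GRP78 (the WT group, F-78(WT)) or the same protein with a mutated nuclear localization signal (the NLS Mut group, F-78(NLS Mut)), with 3 libraries each. Cells without si78 were not analysed here, so every comparison is between si78-treated cells. All libraries come from 1 cell line after transient transfection, and the labels do not say whether replicates were separate cultures, so p-values measure only the spread between these samples, which may be technical.

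Proteins with a classical nuclear localization signal, a stretch rich in lysine and arginine, are bound by an importin α, which links them to importin β. Importin β carries the complex through the pore, and RAN in its GTP-bound form, which is abundant in the nucleus, releases the cargo there. Transportin 1 binds its own class of cargo directly, many of them RNA-binding proteins, and exportin 1 carries proteins with a leucine-rich export signal out of the nucleus together with RAN-GTP. The 2 plasmid-borne forms of GRP78 differ in a lysine-rich signal that the study predicted from sequence and found important for nuclear import. The study tested no importin for it and left the route of GRP78 into the nucleus open. The comparisons ask whether transcripts of the import and export machinery differ between cells that hold either form or neither.

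The signal of GRP78 is shown because it is the designed difference between the proteins of the WT and NLS Mut groups. It covers 48 bases around 3 lysines, read from the GENCODE release 29 transcript of HSPA5, the gene of GRP78, in exon 5 at chr9:125239067-125239114 on the minus strand of GRCh38. Capitals mark the codons of the 3 lysines that are alanines in NLS Mut, at residues 276, 280 and 287.
HSPA5 signal codons: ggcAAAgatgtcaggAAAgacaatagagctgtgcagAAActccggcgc
The sequence is the wild-type reference, and the counts per gene do not show which codons a transcript carried.

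HSPA5 was at 378 ± 17.1 CPM (reads of a gene per library, on library sizes made comparable by TMM; SD, n = 3) with vector, 5664 ± 572 (SD, n = 3) with WT and 4961 ± 195 (SD, n = 3) with NLS Mut, and all 6 libraries with a GRP78 plasmid lay above all 3 with vector. The counts do not separate plasmid from endogenous transcripts. The libraries held 17671055 to 27476298 reads on genes. The 6 epithelial markers lay between 184.5 and 1745 CPM in every library. The 3 leukocyte markers summed to at most 0.275 CPM, all of it from PTPRC, with CD3E and CD68 at 0 reads in all 9 libraries. Of the 4 fibroblast markers, DCN was at 0 reads in all 9 and PDGFRB lay between 6.90 and 11.7 CPM. The fibroblast sum ranged from 7.18 to 9.65 CPM with vector, 9.30 to 11.8 with WT and 6.90 to 8.57 with NLS Mut, so that WT lay above NLS Mut. The 4 lineage markers of lung adenocarcinoma summed to 29.2 to 32.9 CPM with vector, 29.9 to 34.2 with WT and 23.8 to 26.6 with NLS Mut, so that NLS Mut lay below both other groups. Most of that sum was NKX2-1 (21.5 to 31.6 CPM), and SFTPC did not exceed 0.222 CPM. The summed endothelial markers ranged from 5.36 to 7.03 CPM with vector, 6.89 to 8.05 with WT and 5.29 to 7.24 with NLS Mut. The part of these marker differences in the results was not tested. Vector replicate 1 stood apart from the other 2 vector libraries in the dependence of its counts on GC content. Relative to the mean library, log2 counts changed per 10 points of GC by -0.05 in that library and by 0.11 and 0.12 in the other 2, against -0.08 to 0.03 in the 6 libraries with a GRP78 plasmid. Vector replicate 1 thus lay within the range of the libraries with a GRP78 plasmid, and vector replicates 2 and 3 lay above it. The 10 genes are poor in GC (median 41.9%, against 49.3% for all tested genes). Comparisons with vector are therefore given with all libraries, without vector replicate 1 and with an offset for GC content and length. The fit without vector replicate 1 keeps the vector libraries whose GC slopes are furthest from those of the other groups, and it does not adjust for GC content.

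KPNA2, an importin α that is abundant in proliferating cells and many tumours, was higher with NLS Mut than with vector. KPNA2 (ENSG00000182481.10, plus strand of chromosome 17, 68035519 to 68046842) was at 244, 261 and 258 CPM in vector replicates 1 to 3. It was at 273, 266 and 289 CPM with WT and at 286, 312 and 297 CPM with NLS Mut. The 3 vector libraries were the lowest of the 9, and the WT libraries overlapped those with NLS Mut. Between NLS Mut and vector the log2 fold change was 0.23 (standard error 0.06, 95% interval 0.11 to 0.34, adjusted p = 0.046, edgeR's quasi-likelihood test), a rise of 17.2%. With WT the value was 0.12 over vector (adjusted p = 0.42, same edgeR test), and -0.11 against NLS Mut (95% interval -0.23 to 0.00, adjusted p = 0.45, same test).

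KPNA3 and KPNA4, a closely related pair of importins α, gave no call with all 9 libraries. KPNA3 (ENSG00000102753.10, minus strand of chromosome 13, 49699307 to 49792921) was at 56.5, 45.2 and 51.5 CPM with vector, 54.5, 48.9 and 60.5 with WT and 60.4, 62.3 and 60.4 with NLS Mut. The 3 NLS Mut libraries lay above the 3 vector libraries, which had a wide spread. Their difference, a log2 fold change of 0.26, was the largest of the 10 genes in this comparison, with a standard error of 0.09 and an adjusted p of 0.19 by edgeR. Without vector replicate 1 it was 0.33 (adjusted p = 0.022, edgeR), which passed the test. KPNA4 (ENSG00000186432.10, minus strand of chromosome 3, 160494995 to 160565588) was at 218, 194 and 189.9 CPM with vector, 215, 183 and 190.4 with WT and 225, 218 and 208 with NLS Mut. Its groups overlapped in every comparison. For KPNA4 the WT group differed from NLS Mut by -0.15 on the log2 scale (standard error 0.07, unadjusted p = 0.034, adjusted p = 0.38 by edgeR).

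KPNA1, KPNA5 and KPNA6 form the remaining importin α subgroup and were not called in any comparison, with all libraries or without vector replicate 1. KPNA1 (ENSG00000114030.13, minus strand of chromosome 3, 122421949 to 122514945) was at 86.7, 82.2 and 83.5 CPM with vector, 84.4, 80.9 and 82.0 with WT and 88.4, 90.2 and 86.9 with NLS Mut. The NLS Mut libraries were the 3 highest, by a log2 fold change of only 0.07 over vector (standard error 0.07, adjusted p = 0.71, edgeR). KPNA6 (ENSG00000025800.14, plus strand of chromosome 1, 32108038 to 32176568) was at 109.7, 111 and 100.5 CPM with vector, 115, 109.0 and 116 with WT and 108, 105 and 111 with NLS Mut. Its groups overlapped throughout, and the difference between NLS Mut and vector was 0.01 on the log2 scale with a 95% interval from -0.12 to 0.14. KPNA5 (ENSG00000196911.11, plus strand of chromosome 6, 116681187 to 116741866) was by far the weakest, at 7.99, 8.47 and 6.33 CPM with vector, 9.54, 7.28 and 13.6 with WT and 7.71, 6.51 and 8.85 with NLS Mut. The high mean of the WT group came from its replicate 3, and the groups overlapped. KPNA5 rested on 147 to 282 reads per library, and its log2 fold change of 0.41 between WT and vector had a standard error of 0.19 and an adjusted p of 0.40 by edgeR. Without WT replicate 3 the same log2 fold change was 0.15.

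KPNB1, the importin β that carries the importin α complex, moved little. KPNB1 (ENSG00000108424.11, plus strand of chromosome 17, 47649476 to 47685505) was at 427, 401 and 402 CPM with vector, 419.6, 413 and 426 with WT and 454, 442 and 445 with NLS Mut. The NLS Mut libraries lay above the other 6, which were mixed. Over vector the log2 fold change was 0.13 (standard error 0.05, 95% interval 0.02 to 0.23) and did not pass the test with all 9 libraries (adjusted p = 0.28, edgeR). Without vector replicate 1 it was 0.15 (adjusted p = 0.047, edgeR).

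TNPO1, the gene of transportin 1, was the other gene called between NLS Mut and vector. TNPO1 (ENSG00000083312.19, plus strand of chromosome 5, 72816312 to 72916733) was at 258, 238 and 236 CPM with vector, 265, 262 and 271 with WT and 275, 290.3 and 288 with NLS Mut. The 3 groups did not overlap, with vector lowest and NLS Mut highest. Its log2 fold change between NLS Mut and vector was 0.22 (standard error 0.06, 95% interval 0.11 to 0.34, adjusted p = 0.0497, edgeR), a rise of 16.8% that lay at the threshold of 0.05. Against vector, WT gave 0.13 (adjusted p = 0.35, edgeR), and WT against NLS Mut gave -0.10 (95% interval -0.21 to 0.02, adjusted p = 0.53, edgeR).

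XPO1, which exports many regulators and ribosomal subunits, followed a similar order without passing edgeR's test. XPO1 (ENSG00000082898.19, minus strand of chromosome 2, 61477849 to 61538626) was at 334, 305 and 295 CPM with vector, 347, 325 and 349 with WT and 356, 373 and 346 with NLS Mut. All 3 NLS Mut libraries exceeded all 3 vector libraries, whereas WT overlapped both. NLS Mut exceeded vector by 0.20 on the log2 scale, or 15.2%, with a standard error of 0.06 and an adjusted p of 0.090 by edgeR. DESeq2 gave the same difference an adjusted p of 0.024.

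RAN, the GTPase whose nuclear and cytoplasmic forms set the direction of transport, had a spread of only a few CPM within the vector and WT groups. RAN (ENSG00000132341.12, plus strand of chromosome 12, 130871879 to 130877678) was at 289, 292 and 299.9 CPM with vector, 299, 305 and 310.1 with WT and 332, 339.7 and 311 with NLS Mut. The NLS Mut libraries were the 3 highest, with replicate 3 just above the highest WT library. Over vector this was 0.16 on the log2 scale, or 11.6% (standard error 0.05, adjusted p = 0.18 by edgeR and 0.047 by DESeq2).

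**Figure D1:**
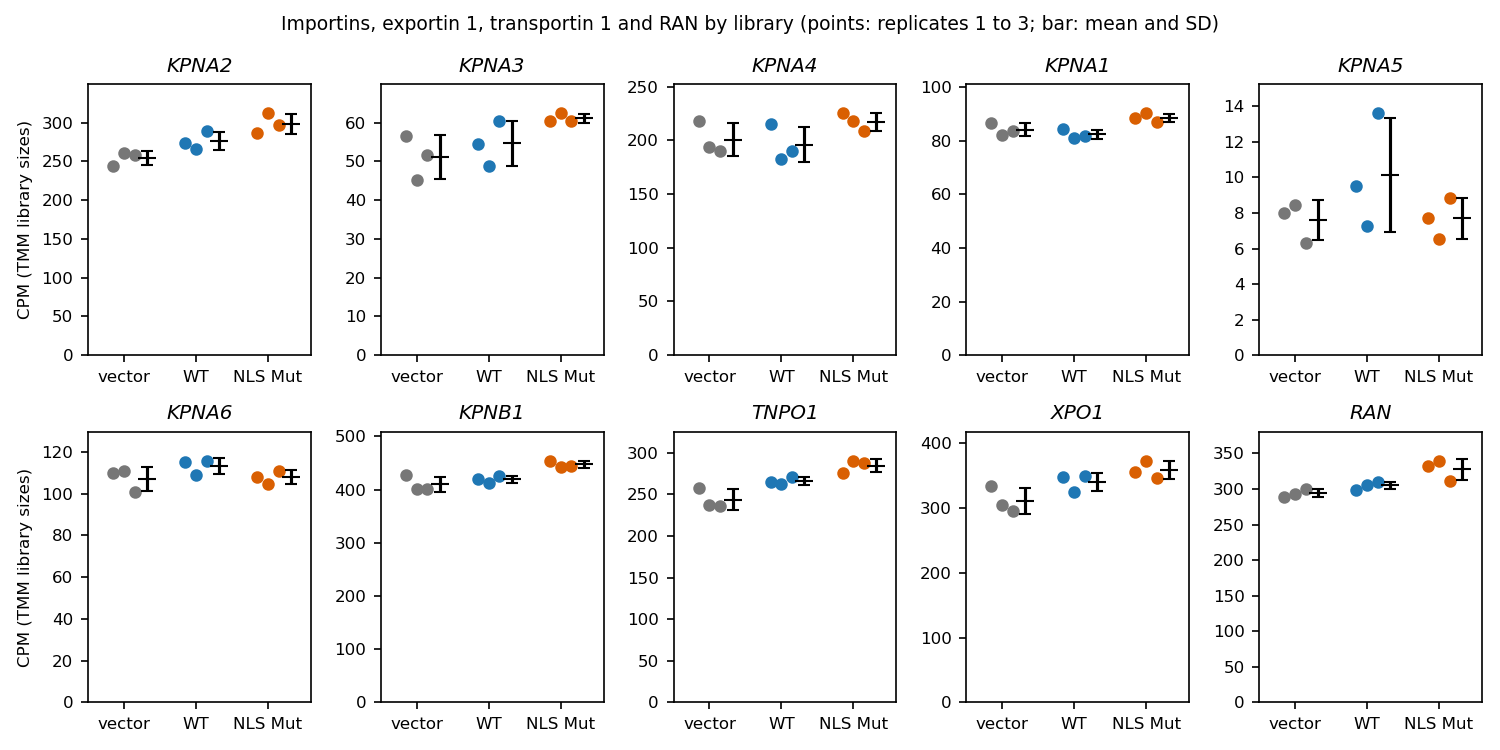
Each panel plots the CPM of 1 gene (vertical axis from 0) in the 9 libraries, with points for replicates 1 to 3 of vector (grey), WT (blue) and NLS Mut (orange) and a bar for the mean and SD beside each group. KPNA2 and TNPO1 with NLS Mut lie above every vector library, and KPNA5 in WT replicate 3 reaches 13.6 CPM.

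Counted together, 2 of the 10 genes were higher with NLS Mut than with vector at an adjusted p under 0.05 by edgeR and 0 were lower, where 0.295% of all tested genes were called higher. DESeq2 called 4 of the 10 higher (KPNA2, TNPO1, XPO1 and RAN), against 1.16% of all tested genes. At an unadjusted p under 0.05 the count was 6 of 10 higher, against 6.13% of all tested genes, and in 7 of 10 the NLS Mut libraries all lay above the vector libraries, against 9.28%. All 10 log2 fold changes were above 0, with a median of 0.14 against -0.0017 for all tested genes. With library size alone in place of TMM it was above 0 in 8 of 10, since KPNA5 and KPNA6 lay close to 0.

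Between WT and vector none of the 10 genes was called by edgeR, where 0.558% of all tested genes were called in either direction, nor by DESeq2, which called 1.4%. At an unadjusted p under 0.05, 4 were higher (KPNA2, KPNA5, TNPO1 and XPO1) and 0 lower, against 11.7% of all tested genes in either direction. KPNA2 and TNPO1 were the 2 genes whose WT libraries all lay above the vector libraries, against 6.53% of all tested genes. The median log2 fold change of the 10 genes was 0.09. With the offset for GC content and length the median was 0.04, and at an unadjusted p under 0.05 KPNA2 was higher and KPNA4 lower, against 11.4% of all tested genes in either direction. TNPO1 was then at 0.04 and XPO1 at 0.04 on the log2 scale, in place of 0.13 for each.

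The direct comparison of WT with NLS Mut, which shares no vector library, called none of the 10 genes by edgeR (0.504% of all tested genes) or DESeq2 (1.66%). WT was below NLS Mut in 8 of 10 genes by the sign of the log2 fold change, with a median of -0.10 against -0.0054 for all tested genes. It lay between -0.16 and -0.07 in those 8 genes and was above 0 in KPNA5 (0.40) and KPNA6 (0.07). At an unadjusted p under 0.05, KPNA4 was lower and KPNA5 higher, against 11.6% of all tested genes in either direction. With the offset for GC content and length, 6 were lower at that level (KPNA1, KPNA2, KPNA4, KPNB1, TNPO1 and RAN), against 8.03% of all tested genes lower, KPNA5 was higher, and none of the 10 passed the adjusted threshold. In 4 of 10 genes (KPNA1, KPNB1, TNPO1 and RAN) the WT libraries all lay below the NLS Mut libraries, against 9.42% of all tested genes. The 95% interval of the difference for RAN ran from -0.21 to 0.01 and for KPNB1 from -0.20 to 0.01. With the offset their log2 fold changes were -0.11 (standard error 0.05, adjusted p = 0.28, edgeR) for RAN and -0.12 (standard error 0.04, adjusted p = 0.12, edgeR) for KPNB1. Both comparisons with vector share its 3 libraries and are not independent, and a call against vector with 1 form and not the other does not show that the forms differ.

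**Figure D2:**
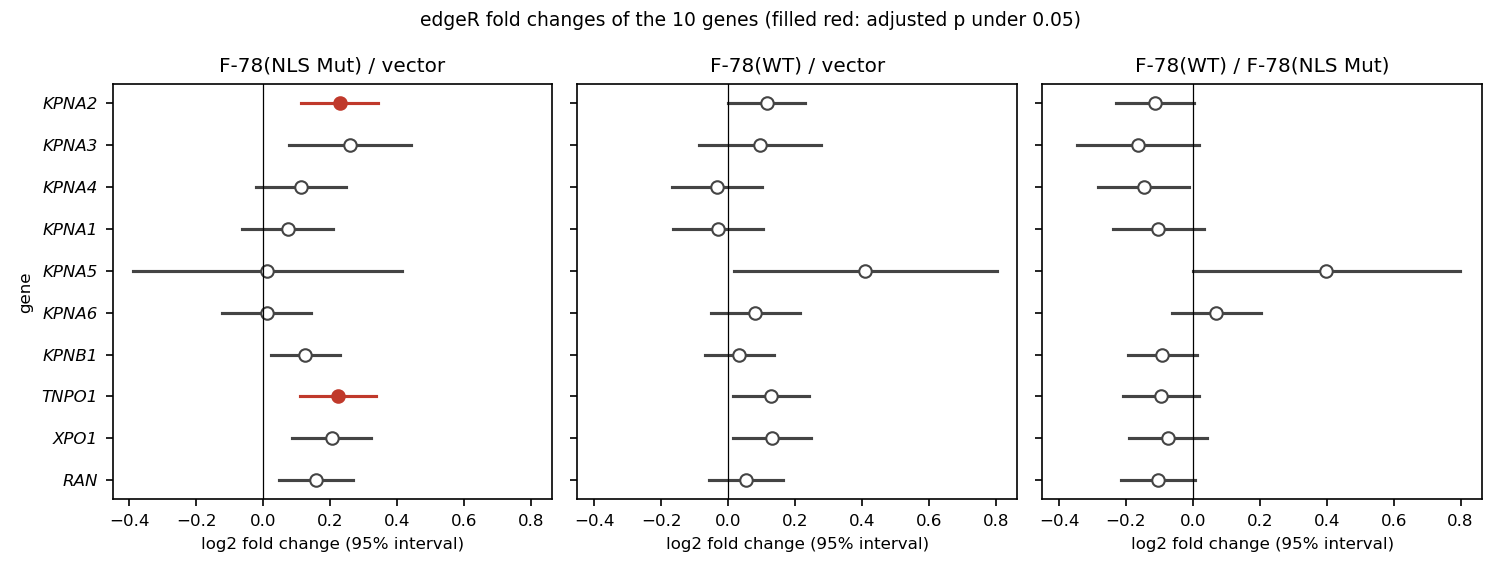
The log2 fold change of each of the 10 genes (horizontal axis) is plotted with its 95% interval from edgeR for NLS Mut over vector, WT over vector and WT over NLS Mut, with filled red points at an adjusted p under 0.05. Only KPNA2 (0.23) and TNPO1 (0.22) are filled, both for NLS Mut over vector, and the interval of KPNA5 is the widest.

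The calls depended on single libraries and on the offset for GC content and length. Without vector replicate 1, edgeR called 5 of the 10 genes higher with NLS Mut than with vector, against 2.38% of the genes tested then. These were KPNA2 (0.19), KPNA3 (0.33), KPNB1 (0.15), TNPO1 (0.26) and XPO1 (0.25), given as log2 fold changes. This fit kept vector replicates 2 and 3, whose GC slopes were 0.11 and 0.12, and used no offset. In the same fit TNPO1 (0.17, adjusted p = 0.037, edgeR) and XPO1 (0.18, adjusted p = 0.022, edgeR) were called higher with WT than with vector, against 2.65% of the genes tested. Without any 1 of the 3 NLS Mut libraries, or without vector replicate 2 or 3 or WT replicate 1 or 3, edgeR called 0 of the 10 genes between NLS Mut and vector, and without WT replicate 2 it called KPNA2 alone. Over the 9 fits that left out 1 library, the log2 fold change stayed between 0.19 and 0.25 for KPNA2 and between 0.19 and 0.26 for TNPO1.

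GC content ranged from 35.7% in KPNA5 to 47.9% in KPNA6, with XPO1 at 38.3%, KPNA3 at 39.8%, TNPO1 at 40.1%, RAN at 44.6% and KPNA2 at 45.8%. With the offset for GC content and length, the log2 fold change of KPNA2 between NLS Mut and vector was 0.22 and its adjusted p was 0.010 by edgeR. The offset lowered the value of TNPO1 to 0.14 (adjusted p = 0.11, edgeR), that of XPO1 to 0.11 (adjusted p = 0.26, edgeR) and that of KPNA5 to -0.11. These 3 are also the longest of the 10 genes, with 11977, 11708 and 11417 bases of exon, while the shorter KPNA3 (4474 bases) went from 0.26 to 0.19. The offset was made for both properties together, so the shares of GC content and of length were not tested. KPNA2 was then the 1 gene of the 10 that was called, against 1.2% of all tested genes called higher. Against NLS Mut, where the GC slopes of the libraries were closer, the median log2 fold change of WT over the 10 genes was -0.10 without and -0.11 with the offset.

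**Figure D3:**
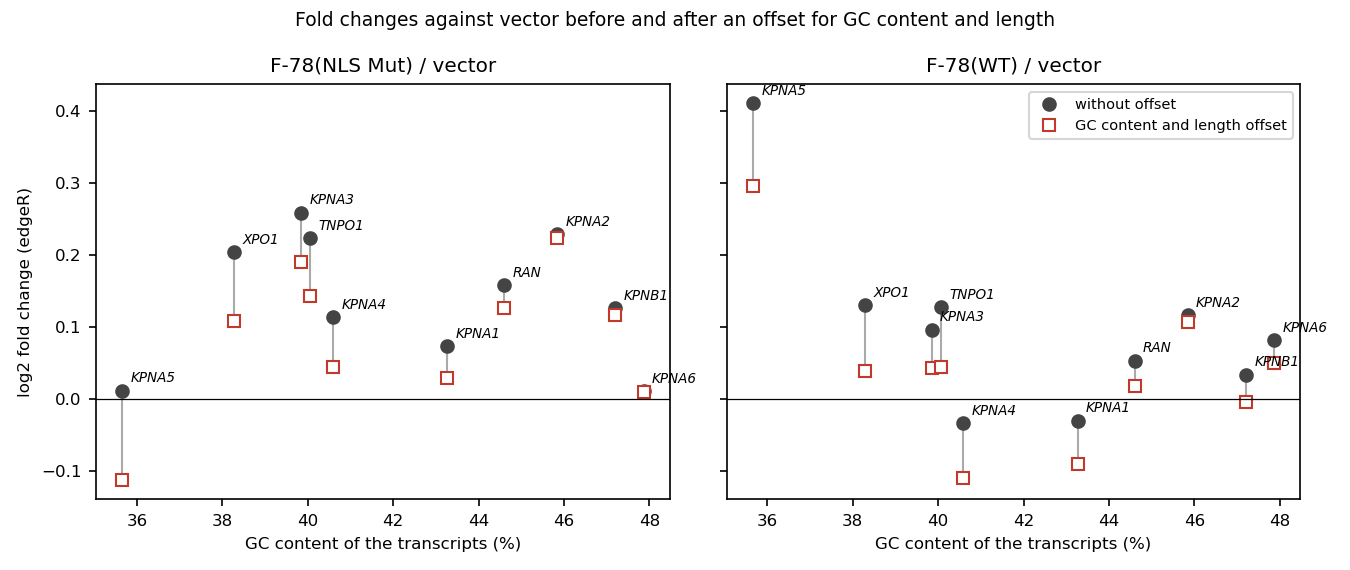
For each of the 10 genes the log2 fold change against vector (vertical axis) is plotted at the gene's GC content in % (horizontal axis), as a filled circle without and an open red square with the offset for GC content and length, for NLS Mut on the left and WT on the right. The squares of KPNA5, XPO1 and TNPO1, which lie between 35.7% and 40.1% GC and are the 3 longest genes, drop furthest in both panels, and that of KPNA2 stays at 0.22 on the left.

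Levels were compared between the 10 genes only as RPKM, the CPM divided by the length of the annotated exons in kilobases. That length merges the exons of all annotated transcripts of a gene, whichever of them the cells express, and the order below depends on it. By mean CPM, RAN (294 with vector, 305 with WT, 328 with NLS Mut) exceeded KPNA2 (254, 276 and 298) in each group. KPNA2 was highest, with a mean of 88.0 RPKM over the 9 libraries (77.7 to 99.3), followed by RAN at 64.0 (59.9 to 70.4), KPNB1 at 55.4 (52.2 to 59.1) and XPO1 at 28.8 (25.2 to 31.8). Each of these 4 lay apart from its neighbours in every library. TNPO1 (22.1 RPKM) and KPNA4 (21.7 RPKM) overlapped, as did KPNA6 (14.6 RPKM) with KPNA3 (12.4 RPKM) and KPNA3 with KPNA1 (10.1 RPKM). KPNA5, at 0.742 RPKM, was below all others in every library. Of the summed RPKM of the 6 importin α genes, KPNA2 made up 58.4 ± 2.23% (SD, n = 3) with vector, 59.9 ± 1.05% (SD, n = 3) with WT and 60.4 ± 1.16% (SD, n = 3) with NLS Mut, and the 3 groups overlapped. The share of KPNA6 was 8.66% to 9.51% with NLS Mut, below vector (9.75% to 10.6%) and WT (10.2% to 10.4%), and that of KPNA1 was 6.99% to 7.37% with vector, above WT and NLS Mut (at most 6.85%). The other shares overlapped between groups.

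**Figure D4:**
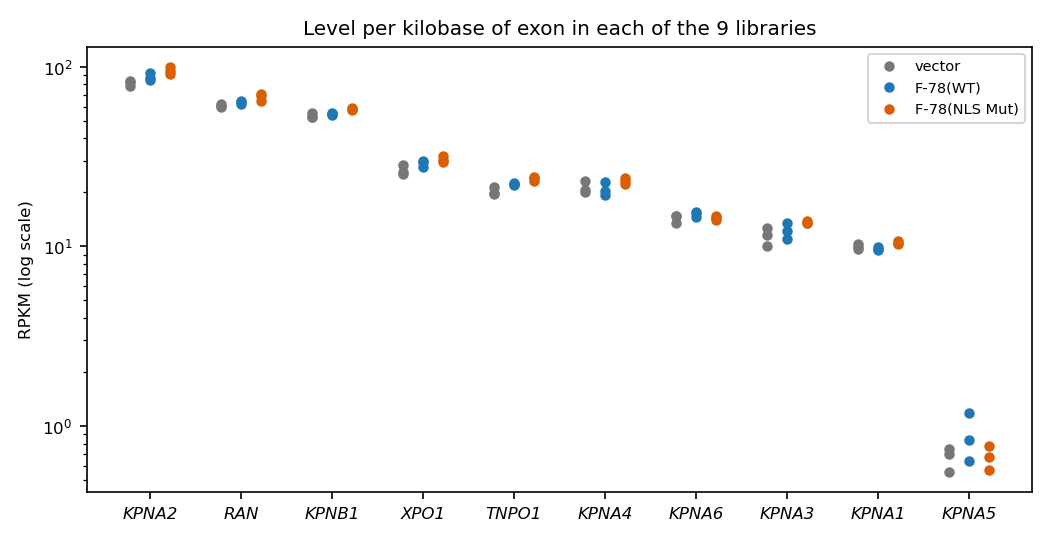
The RPKM of the 10 genes (vertical axis, log scale) is plotted by library and group, in order of the mean over the 9 libraries. The 3 groups lie close together within each gene, while the genes span from 0.742 RPKM in KPNA5 to 88.0 RPKM in KPNA2.

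A list of 56 other genes of nuclear transport (12 importers, 7 exporters, 7 genes of the RAN cycle, 28 nucleoporins and 2 mRNA export factors) was described beside the 10 genes, and 54 of them were tested. Between NLS Mut and vector, edgeR called 3 of them higher and 0 lower, against the same 0.295% of all tested genes, and their median log2 fold change was 0.13. IPO5, an importer of ribosomal proteins and histones, was at 232, 236 and 228 CPM with vector and at 279.9, 281 and 266 CPM with NLS Mut, which is 0.25 on the log2 scale with a standard error of 0.06 (adjusted p = 0.023, edgeR). NUP153, a nucleoporin of the nuclear basket, was at 154, 143 and 140.3 CPM with vector and at 171, 174 and 175 CPM with NLS Mut, which is 0.25 on the log2 scale with a standard error of 0.06 (adjusted p = 0.037, edgeR). CSE1L, which returns importin α to the cytoplasm, was at 250.4, 223 and 228 CPM with vector and at 275, 299.6 and 264 CPM with NLS Mut, which is 0.26 on the log2 scale with a standard error of 0.06 (adjusted p = 0.044, edgeR). In all 3 genes the NLS Mut libraries did not overlap those with vector. The WT libraries overlapped those with vector in each of the 3, and in CSE1L also those with NLS Mut. By role, the log2 fold change was above 0 in 7 of 7 exporters, 10 of 11 importers, 26 of 28 nucleoporins, 5 of 6 genes of the RAN cycle and 2 of 2 mRNA export factors. The count of calls in the list was 0 without vector replicate 2 or 3 or without any 1 of the NLS Mut libraries. It was 1 without WT replicate 3 and 8 without vector replicate 1, where 2.38% of the genes tested then were called higher. DESeq2 called 7, against 1.16% of all tested genes called higher. With the GC and length offset 9 were called, against 1.2% of all tested genes called higher.

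Between WT and NLS Mut edgeR called none of the 54, 17 were lower and 0 higher at an unadjusted p under 0.05, against 6% of all tested genes lower, and the median was -0.11. The 3 smallest p-values belonged to TNPO2, the paralog of TNPO1 (-0.22, adjusted p = 0.061, edgeR), RANGAP1, which activates the GTPase of RAN in the cytoplasm (-0.24, adjusted p = 0.10, edgeR), and IPO5 (-0.19, adjusted p = 0.11, edgeR). TNPO2 was at 243, 252 and 242 CPM with WT, at 290.5, 289.7 and 276 with NLS Mut and at 259.5, 269.5 and 273 with vector, so that the WT libraries were the 3 lowest. DESeq2 called TNPO2 and IPO5, both lower, against 1.66% of all tested genes called in either direction. With the GC and length offset 7 of the 54 were called lower, against 1.3% of all tested genes. These were TNPO2, IPO5, XPO5, XPO6, RANGAP1, NUP153 and NUP205. Without vector replicate 1, which enters this comparison through the shared spread, filter and normalization, edgeR called 5 of the 54. The share of all tested genes called in that fit was not counted, so this count is not read as a result about the list. Between WT and vector neither edgeR nor DESeq2 called any of the 54, with a median of 0.03 and 3 lower and 0 higher at an unadjusted p under 0.05. That count is near the background, since 6.52% of all tested genes were lower at that level. The 3 were RANGAP1 (-0.17, adjusted p = 0.31, edgeR), NXT1, a cofactor of mRNA export (-0.25, adjusted p = 0.35, edgeR), and TNPO2 (-0.12, adjusted p = 0.36, edgeR). Without vector replicate 1 edgeR called 2 of the 54 in this comparison, where 2.65% of the genes tested then were called higher alone. That count is also near the background.

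**Figure D5:**
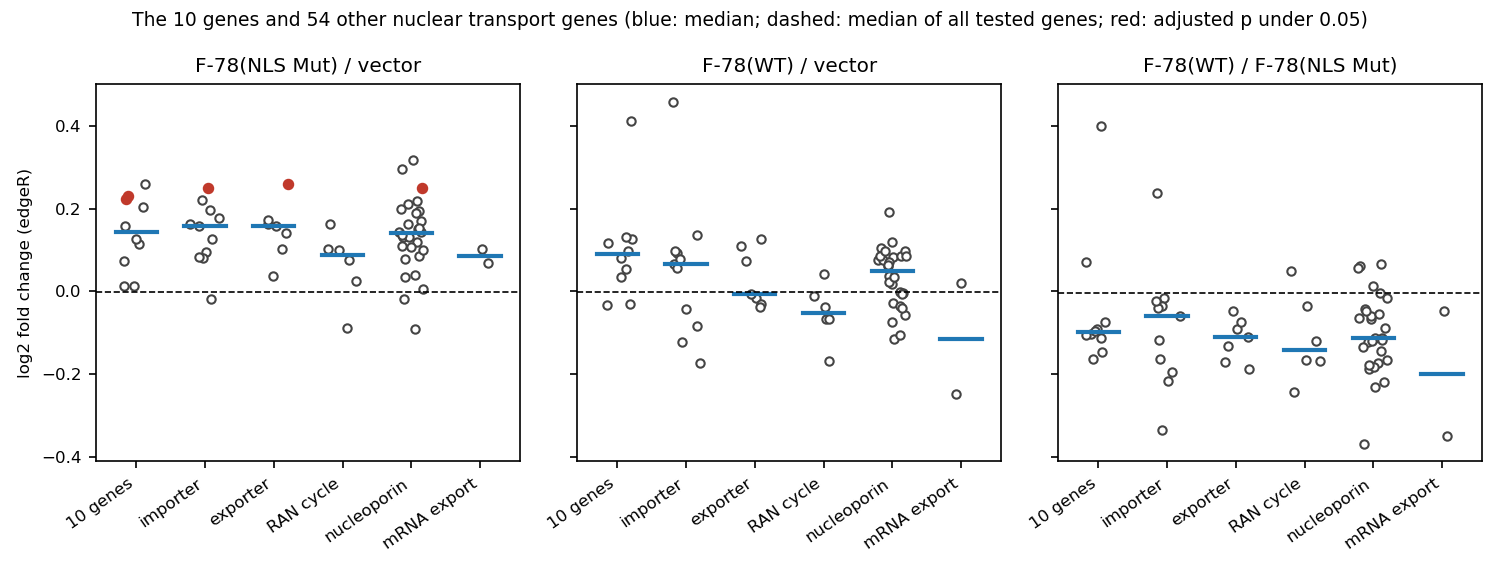
The log2 fold changes (vertical axis) of the 10 genes and of the 54 other transport genes by role are plotted for the 3 comparisons, with a blue line at each median, a dashed line at the median of all tested genes and filled red points at an adjusted p under 0.05 by edgeR. The medians over vector lie at 0.14 for the 10 genes and between 0.08 and 0.16 for the other roles with NLS Mut, and the red points there are KPNA2, TNPO1, IPO5, CSE1L and NUP153.

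MYC and MKI67, a transcription factor of growth and a marker of cycling cells, are given beside these values. MYC was at 690.4 ± 77.3 CPM (SD, n = 3) with vector, 490.0 ± 53.9 (SD, n = 3) with WT and 708 ± 27.4 (SD, n = 3) with NLS Mut. MYC was lower with WT than with NLS Mut (log2 fold change -0.53, adjusted p = 9.5e-05, edgeR), where 8 of the 10 transport genes also had a log2 fold change below 0. It was also lower with WT than with vector (-0.49, adjusted p = 0.00024, edgeR), where 8 of the 10 transport genes had a log2 fold change above 0. NLS Mut differed from vector by 0.04 in MYC (adjusted p = 0.90, edgeR). With the offset for GC content and length this MYC difference was 0.14 (standard error 0.05, adjusted p = 0.21, edgeR). The offset brought MYC between WT and vector to -0.40 (adjusted p = 1.7e-05, edgeR). MKI67 was at 353 ± 22.9 CPM (SD, n = 3) with vector, 372 ± 4.29 (SD, n = 3) with WT and 402 ± 13.9 (SD, n = 3) with NLS Mut. KPNA2, KPNA3, KPNB1, TNPO1, XPO1 and RAN had the same order of group means, and KPNA1, KPNA4, KPNA5 and KPNA6 had another. For NLS Mut over vector MKI67 gave 0.19 on the log2 scale, with an adjusted p of 0.11 by edgeR and 0.031 by DESeq2. With the offset for GC content and length it gave 0.18 (adjusted p = 0.033, edgeR). The part of either gene in the results above was not tested. In bulk RNA, more cells of a kind and more RNA per cell cannot be told apart.

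For RAN, KPNB1 and XPO1, the genes with the most similar pattern over the 9 libraries were found among 10070 candidates of at least 10 CPM, by the root mean square difference of log2 CPM centred on each gene's own mean. RAN was closest to PGM2 (0.028), UTP6 (0.029) and LAPTM4B (0.032), where its own SD over the libraries was 0.074. KPNB1 was closest to AGFG1 (0.019), STOM (0.020) and GMPS (0.027), with an SD of 0.060. XPO1 was closest to SKP2 (0.022), RDX (0.024) and MET (0.029), with an SD of 0.10. These are descriptions of 9 libraries that share depth and GC effects.

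Promoter sequences are shown for the genes that were called, with XPO1, RAN and KPNA3 beside them, because the study concerns transcription. RefSeq entries (GRCh38.p14, from 250 bases before the start site) were matched for 7 of the 10 genes, in 9 entries, and not for KPNA4, KPNA5 and KPNB1. On both strands, CCAAT, the box bound by the factor NF-Y, was found in 4 of the 9 entries and in 34.6% of all 35116 entries. CACGTG, the E-box bound by MYC and its relatives, was found in 3 of 9 and in 7.3% of all. CANNTG, the general E-box, which includes CACGTG, was found in 6 of 9 and in 68.7% of all. Capitals mark the motif in each window, written 5′ to 3′ on the strand of the gene.
KPNA2 (chr17:68035636-68035660, plus strand): ttcaaatccaCCAATgggcacacag
KPNA2 (chr17:68035667-68035691, plus strand): ctcgaaccagCCAATcggaatgcgg
TNPO1 (chr5:72816612-72816636, plus strand): cgccccccggCCAATcggaccggcg
XPO1 (chr2:61538417-61538441, minus strand): ggcgctcgggCCAATgagagatagg
XPO1 (chr2:61538374-61538398, minus strand): ctggaactgaCCAATaggagggcgg
XPO1, second start (chr2:61537116-61537141, minus strand): ccgcctgcatCACGTGgccccctcgg
RAN (chr12:130871954-130871979, plus strand): acgcgcgggcCACGTGggcgggcgcc
KPNA3 (chr13:49792733-49792758, minus strand): cgcccccggtCACGTGtcgccagcct
The CCAAT boxes of KPNA2 lay 89 and 58 bases before its start site, that of TNPO1 39 bases and those of XPO1 75 and 32 bases. The E-box of RAN lay 102 bases and that of KPNA3 66 bases before the start. KPNA6, which differed by 0.01 on the log2 scale between NLS Mut and vector, also holds CCAAT (chr1:32107978-32108002), so the motif is not particular to the genes that were called. The matches are letters in a window, and binding was not measured.

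The counts were made without regard to strand, so reads where annotated genes overlap cannot be assigned by strand. Annotated genes on the opposite strand overlap KPNA1, KPNA3, KPNA4, KPNB1, TNPO1 and XPO1. KPNA6 overlaps 1 annotated gene on its own strand, and KPNA2, KPNA5 and RAN overlap no other. Of 17 annotated pseudogenes of the 10 genes, 8 had 0 reads in every library and 1 reached 1 CPM. That one, RANP4, was at 1.83 ± 0.606 CPM (SD, n = 3) with vector, 1.37 ± 0.479 (SD, n = 3) with WT and 0.753 ± 0.211 (SD, n = 3) with NLS Mut, the reverse of the order of RAN. Adding the pseudogene counts to their parent genes changed no call. Reads that mapped to several places, 6.71% to 9.10% of the reads of a library, are in no gene's count. The effect of reads that a gene shares with its pseudogenes was therefore not tested.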

How the data were processed

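RNA-Seq was measured in 9 libraries of H1975 cells, 3 per group. Per library, the authors deposited unnormalized counts of reads on genes. Per the submitters' processing notes, STAR 2.7.9a, GRCh38.p14 and DESeq2 1.36.0 were used. The annotation release is not given in the sources used here. The unstranded column was taken, because 50.6% to 51.9% of reads lay on the forward strand. Summary lines, which name no gene, held 27.6% to 30.7% of reads and were left out.

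Counts were filtered with filterByExpr, normalized by TMM and fitted in 1 quasi-likelihood model of all 9 libraries with edgeR 4.0.16 (limma 3.58.1, R 4.3.3). The Benjamini-Hochberg adjustment ran over the 18653 tested genes, with a threshold of 0.05. A standard error is the size of the log2 fold change over the root of its F statistic. RPKM used exonic lengths of GENCODE release 29, which also gave coordinates and GC content. Of the 61544 identifiers, 58342 were found there.

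The 10 genes, the list of transport genes and the markers were chosen with earlier results of these data known. The genes named were the 10 genes, HSPA5, pseudogenes of at least 1 CPM, list members called or among the 3 smallest p-values of a comparison, the 3 nearest patterns to RAN, KPNB1 and XPO1, and MYC and MKI67. Where a few more list members are counted under another setting, they were named after their values were seen. Replicates of a group differed by more than sampling noise (chi-square per degree of freedom 3.55 to 12.7). With 3 against 3, an exact permutation test cannot go below p = 0.10, so model p-values are given. The procedure was tested on simulated data. Its pass condition concerned larger changes than those of the 10 genes, so it does not show how often changes of their size are found. The alternatives were DESeq2 1.42.0, other scalings and filters, 2-group fits, both strands summed, the replicate number as a block, a loess offset (span 0.3) for GC content and length, pseudogene counts added, and leaving out each library. Figures were drawn with matplotlib 3.10.9.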

Additional observations from a re-analysis of the deposited data

How the results depend on the processing

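Between NLS Mut and vector, 2 of the 10 genes were called. The count was 4 with DESeq2, 1 with its size factors in edgeR, without a filter on low counts, with both strands summed, with the GC content and length offset, and with that offset and the replicate block, and 0 with library size alone or only the 2 groups compared. Leaving out 1 library gave 0 to 5 calls there, 0 to 2 between WT and vector, and 0 between WT and NLS Mut. KPNA2 lost its call with library size alone (adjusted p = 0.074, edgeR) and with only the 2 groups compared (0.058), and in 7 of the 9 fits without 1 library. TNPO1 lost its call in 8 of those 9 and under 7 other settings (adjusted p from 0.051 to 0.11, edgeR). Of the 54 other transport genes, 3 were called between NLS Mut and vector, against 7 with DESeq2, 9 with the offset, 10 with the offset and the replicate block, 1 with library size alone and 0 to 8 without 1 library. Between WT and NLS Mut none of the 54 was called, against 2 with DESeq2, 7 with the offset, 8 with the offset and the replicate block, 1 without a filter, 3 with only the 2 groups compared and 0 to 5 without 1 library. Between WT and vector the count was 0 to 2 without 1 library. The share of all tested genes called higher between NLS Mut and vector also moved. It was 0.295% in the main fit, 1.16% with DESeq2, 1.2% with the offset and 2.38% without vector replicate 1. The causes of these changes were not tested.

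Log2 fold changes that changed sign were all near 0 or of low counts. KPNA1 between WT and vector was 0.039 with both strands summed, and KPNB1 was -0.0040 with the offset and -0.0040 with the offset and the replicate block. KPNA4 in that comparison ranged from -0.10 to 0.028 without 1 library. Between NLS Mut and vector, KPNA5 was -0.11 with the offset, -0.13 with the offset and the replicate block, -0.011 with library size alone and -0.11 to 0.12 without 1 library. KPNA6 there was -0.012 with library size alone and -0.039 to 0.034 without 1 library.

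Deviations from the group means correlated between -0.02 and 0.06 for the same replicate number and between -0.05 and 0.02 for different numbers. These correlations showed no clear pairing of the samples by number, and they cannot exclude a shared batch. With the replicate number as a block, 2 of the 10 genes and 4 of the 54 others were called between NLS Mut and vector and 2 of the 54 between WT and NLS Mut, and KPNA5 was -0.0080 between NLS Mut and vector. KPNA5 had the fewest reads of the 10 genes, 147 to 282 per library.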
